A study of Mus musculus with 855 samples.

Results

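The P16 cells of this series were divided by *Cck*, the gene of the neuropeptide cholecystokinin. The cells were starburst amacrine cells, called starburst cells here, taken by sorting at postnatal day 16 from C57BL/6 mice that carried *Chat* Cre/+; ROSA-LSL tdTomato/+. A cell belonged to the group with *Cck* where its deposited value, multiplied by its size factor, came to at least 1 fragment after rounding, and to the group without *Cck* otherwise. This gave 92 cells with and 94 cells without *Cck*, out of 820 analysed cells of the series. The analysed cells of P1, P4, P8 and P11 were used only to place the *Cck* values, and 35 further cells labelled as filtered out were not used. The P16 cells were deposited as set a, with 36 of 91 cells in the group with *Cck*, and set b, with 56 of 95.

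All cells carried both alleles, so no group differed by genotype or treatment. Cre made from the *Chat* locus turns on tdTomato for good, so the sort takes any cell that has ever used *Chat*. Retinas of several mice were dissociated together, and the labels name neither the mouse nor the sex of a cell. What sets a and b stand for is not stated either. All P16 cells were therefore counted as 1 sample, no p-value was computed from them, and intervals cover counting error only. Sets a and b are given side by side and are not replicates of a condition.

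Starburst cells are retinal interneurons that release both acetylcholine and GABA and are needed for the direction selectivity of retinal ganglion cells. Cholecystokinin is made as a prohormone, sorted into dense-core granules together with granins, cut by prohormone convertases and carboxypeptidase E, and amidated by the enzyme PAM before it is released to act on the receptors *Cckar* and *Cckbr*. In the retina the peptide is known from subsets of amacrine cells.

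The *Cck* gene spans positions 121489824 to 121495694 of chromosome 9, minus strand (GRCm38, GENCODE vM21), and its transcript Cck-201 has 3 exons. The RefSeq promoter window from 250 bases before to 50 bases after its start (GRCm38.p6, chr9:121495645-121495944, minus strand) is shown because this gene divided the cells. Capitals mark matches to CACGTG (an E-box), TGCGTCA (a sequence like an AP-1 or cyclic AMP response element) and TATTTAA (a sequence like a TATA box), in this order, with both strands searched.
Cck promoter: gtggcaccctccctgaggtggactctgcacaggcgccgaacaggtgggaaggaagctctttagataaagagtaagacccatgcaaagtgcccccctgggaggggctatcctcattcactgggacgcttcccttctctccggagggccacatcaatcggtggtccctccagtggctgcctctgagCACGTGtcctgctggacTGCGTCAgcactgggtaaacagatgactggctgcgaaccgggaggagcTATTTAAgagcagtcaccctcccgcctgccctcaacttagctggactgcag
Of 32851 RefSeq promoters of the same length, 7.15% held CACGTG, 2.12% TGCGTCA and 4.51% TATTTAA. In the *Cck* window, CACGTG begins at -66, TGCGTCA at -49 and TATTTAA at -1 bases from the RefSeq start. The TATTTAA match thus runs across the start itself. These matches describe the letters of the window only.

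*Cck* was almost absent before P16. Its FPKM, the fragments of a gene normalized for transcript length and for the depth of the cell, was 0 in all P1 cells (70 in set a and 73 in set b), all P4 cells (93 and 92) and all P8 cells (82 and 84). A count of 0 allows shares of up to 2.1%, 1.62% and 1.81% of these ages (3 counts of the total). Among 140 P11 cells, 1 had *Cck*, with an FPKM of 196.6, a share of 0.714% (exact Clopper-Pearson 95% interval 0.0181 to 3.92). At P16, the share was 49.5% (42.1 to 56.9). The interval at P16 lay above those of all 4 earlier ages. The median deposited fragment total per cell was 275726 at P16, against 305908 for P1 cells, 243771 for P4 cells, 624286 for P8 cells and 284886 for P11 cells. At these depths, the median number of genes with FPKM above 0.1 per cell was 2579 at P16. It was 4395 for P1, 5735 for P4, 6282.5 for P8 and 4773.5 for P11 cells. How the lower number at P16 bears on the *Cck* shares was not tested.

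The cells with *Cck* were chosen by the measured *Cck* values, which are therefore a description. The group had a median of 58.5 *Cck* fragments per cell (quartiles 34.5 and 101.5), and all cells outside it had 0. Just inside the threshold lay 3 cells with 1 fragment, 1 with 2 and 2 with 3. Of the 92 cells, 8 had 1 to 9 fragments, 60 had 10 to 99 and 24 had 100 or more. In the group, *Cck* FPKM had a median of 416.6, a highest value of 2214 and a mean of 541.8 ± 401.9 (SD, n = 92). Most cells thus held either no fragment or many.

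**Figure D1:**
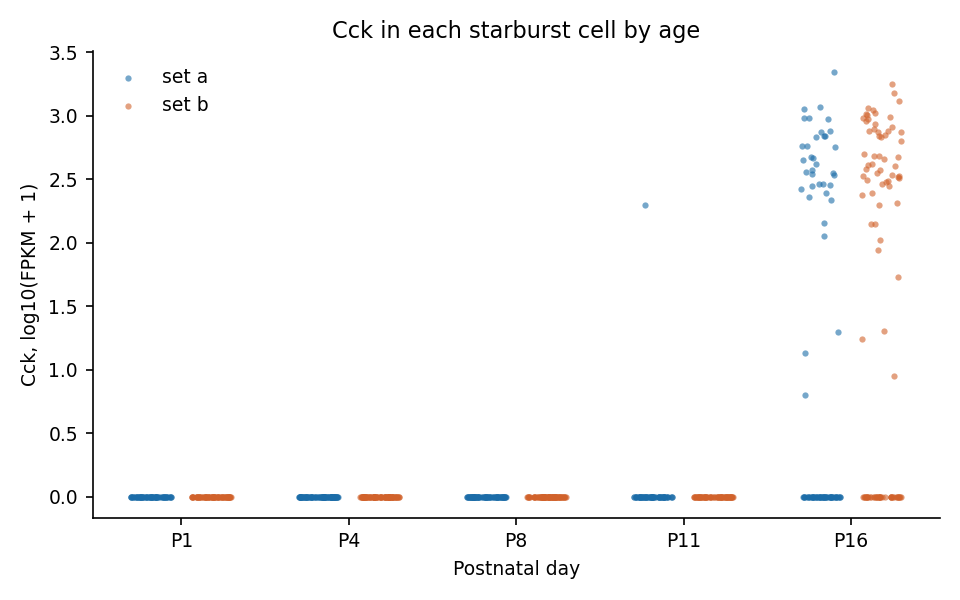
Each point is 1 cell, plotted by age (horizontal axis, postnatal day) and *Cck* level (vertical axis, log10 of FPKM + 1), with set a in blue and set b in orange. Cells at P1, P4 and P8 lie at 0, 1 cell stands out at P11, and at P16 the 92 cells with *Cck* lie apart from the 94 at 0, with few cells in between.

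The share of cells with *Cck* differed between sets. It was 39.6% in set a (29.5 to 50.4) and 58.9% in set b (48.4 to 68.9), and these intervals overlapped in part. The level among cells with *Cck* was similar, with a median FPKM of 394.9 (set a) and 437.3 (set b). When every cell was thinned to 161786 fragments, the number in the shallowest cell, 90 cells kept a *Cck* fragment (48.4%, 41.01 to 55.8). Among genes whose mean FPKM lay within 2-fold of the mean of *Cck*, the median gene was present in 70.4% of P16 cells.

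Cells of both groups had the RNA of starburst cells. *Slc18a3*, the vesicular acetylcholine transporter, was present in 98.9% of cells with *Cck* and 100% of cells without. Its mean FPKM was 854.9 with and 1001 without *Cck* in set a beside 882.0 and 1027 in set b. *Gad1*, which makes GABA, was present in every cell of both groups. *Chat*, which makes acetylcholine, was present in 83.7% (74.5 to 90.6) of cells with and 90.4% (82.6 to 95.5) of cells without *Cck*. At least 2 of the 6 starburst cell markers (*Chat*, *Slc18a3*, *Slc5a7*, *Megf10*, *Sox2* and *Isl1*) were present in 89 of the 92 cells with *Cck* and in all 94 without. The summed FPKM of these markers had a median of 2052 (highest 3985) with and 2212 (lowest 987.2, highest 5767) without *Cck*, and the lowest cell with *Cck* lay below the lowest without. At least 2 markers of another retinal cell type were found in 0 of 92 cells with *Cck* (which allows a share of up to 3.26%) and in 4 of 94 without (4.26%, 1.17 to 10.5), of which 3 held Muller glia genes and 1 held rod genes.

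The numbers of detected genes overlapped between the groups. With *Cck* left out, a cell with *Cck* had a median of 2665.5 genes with FPKM above 0.1 in set a (2230 to 2919, n = 36) against 2531 without (2185 to 3037, n = 55). In set b the medians were 2607.5 (2184 to 2951, n = 56) and 2556 (2104 to 2949, n = 39), whereas the means had the opposite order, 2577 with and 2608 without. In set a the means were 2620 with and 2521 without *Cck*. The difference of medians was 134.5 genes in set a and 51.5 in set b. Both were smaller than the SD within each group, which lay between 175.9 and 220.7. This SD is the spread between cells and does not measure the error of a median. The ranges overlapped almost fully. The median depth was 261599 fragments in cells with and 268788 in cells without *Cck*, while the means were 275955 and 275164. After thinning, the differences of medians were 110 and 29 genes. The median share of fragments from mitochondrial genes was 2.25% with and 2.14% without *Cck*, and that from ribosomal protein genes 0.723% and 0.704%.

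**Figure D2:**
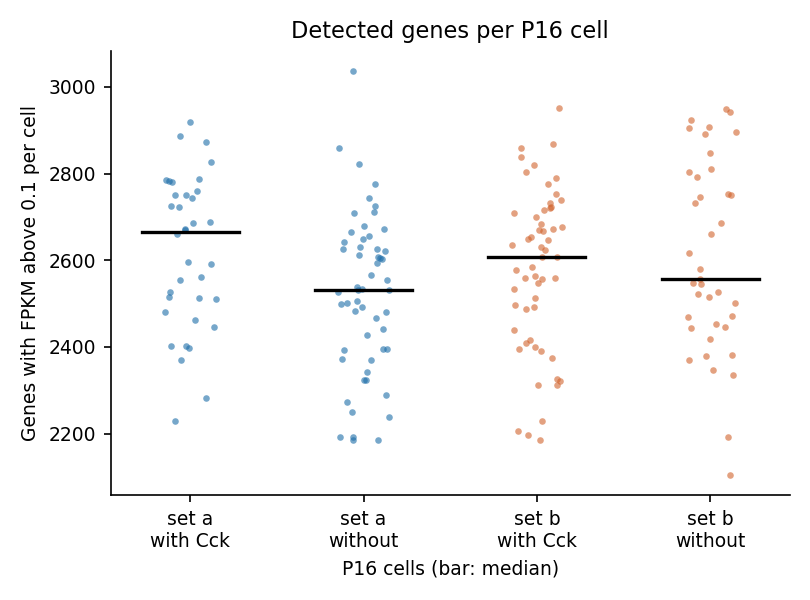
Each point is 1 P16 cell, plotted by set and *Cck* group (horizontal axis) and number of genes with FPKM above 0.1 (vertical axis, which does not start at 0), with bars for the medians. The medians with *Cck* are 2665.5 in set a and 2607.5 in set b, above 2531 and 2556 without, and the clouds of points overlap.

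Few genes went with *Cck* in both sets. The log2 ratio of mean FPKM + 1, with to without *Cck*, was taken in each set over the 6842 genes that reached a mean FPKM of 1 and had a fragment in at least 10% of P16 cells. At least 2-fold higher in both sets were 95 genes (1.39% of those tested), and 1.52% were at least 2-fold lower in both. Nearly as many, 2.5%, were past 2-fold in opposite directions, 75 of them higher in set a and 96 higher in set b. Across genes, the log2 ratios of both sets had a Pearson r of 0.036 and a Spearman rho of 0.039, and 52.1% had the same sign. These are descriptions across genes, which are not independent replicates and come from the same cells in each set. Of the 1255 genes whose mean FPKM reached 100, 0 were past 2-fold in both sets, in the same or in opposite directions. Called genes were sparse, with a median presence in 14.5% of P16 cells and a median FPKM of 17.5, against 25.8% and 33.7 for all genes tested.

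**Figure D3:**
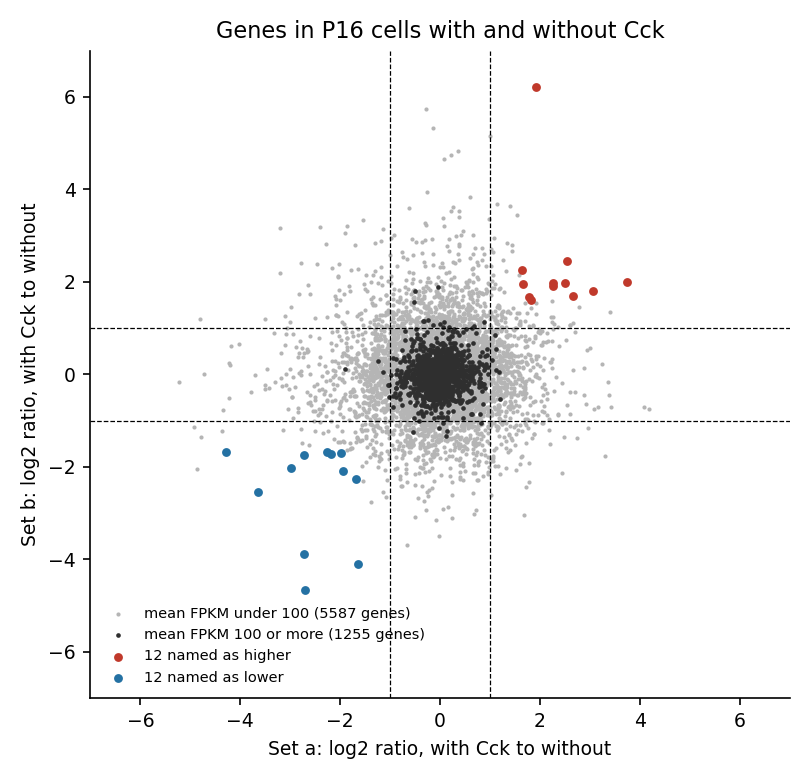
Each point is 1 of the 6842 genes tested, with its log2 ratio of mean FPKM + 1 in set a (horizontal axis) and set b (vertical axis), and dashed lines at 2-fold. The cloud is round (r = 0.036), the 1255 genes whose mean FPKM reached 100 (black) have no point in any corner past 2-fold in both sets, and the 12 genes named as higher (red) and 12 as lower (blue) lie at its edges.

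The 12 genes with the largest smaller log2 ratio of both sets among those higher with *Cck* were *Knop1*, *Haus2*, *Rasa1*, *Rpp25*, *Fhit*, *Stox2*, *Rfwd2*, *Selo*, *Dtwd2*, *Ppp2r2a*, *Mirg* and *Katnbl1*. *Knop1*, which codes for a lysine-rich nucleolar protein, had a mean FPKM of 20.0 with and 2.6 without *Cck* in set a beside 26.5 and 4.03 in set b. It was nevertheless present in 17 of 92 and 11 of 94 cells, and its highest cell with *Cck* stood at 465.5. *Rasa1*, a GTPase-activating protein for Ras, had 13.7 and 1.59 in set a beside 23.3 and 5.15 in set b, from 11 and 10 cells. *Fhit*, a diadenosine triphosphate hydrolase, had 93.9 and 24.04 in set a, and in set b 73.7 with *Cck* while it was listed at 0 in all 39 cells without. *Ppp2r2a*, a regulatory subunit of the phosphatase PP2A, was the most widespread of the 12, in 36 of 92 cells with (39.1%, 29.1 to 49.9) and 19 of 94 without *Cck* (20.2%, 12.6 to 29.8). Its mean FPKM was 31.2 and 9.19 in set a beside 33.8 and 7.91 in set b. All 12 were present in 10.8% to 29.6% of P16 cells, and a single cell held a median of 19.6% of the FPKM of the higher group. The intervals of the shares of cells overlapped for each of the 12.

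The 12 lower genes were *Gclm*, *Plppr3*, *Pet117*, *Tor1aip1*, *Rfx7*, *Elf1*, *Ppp1r9a*, *Pcdhb16*, *Zbtb11*, *Mmgt1*, *Zfp956* and *Metap1*. *Gclm*, a subunit of the enzyme that starts glutathione synthesis, was present in 6 of 92 cells with *Cck* and 17 of 94 without, and its highest cell was at 22.8 FPKM with and 404.8 without. *Plppr3*, a phospholipid phosphatase-related membrane protein of neurons, was present in 4 of 92 cells (4.35%, 1.2 to 10.8) and 18 of 94 (19.1%, 11.8 to 28.6). Its intervals alone among the 12 did not overlap, but all 12 were picked for large differences in these same cells. The share of all genes tested with intervals apart was not computed. *Pet117*, a mitochondrial protein for cytochrome oxidase assembly, had 0 fragments in the 36 cells with *Cck* of set a and was present in 11 of 55 cells without, while in set b it was present in 4 cells of each group. *Ppp1r9a*, the actin-binding protein neurabin, was present in 18 and 26 cells. These genes were present in 10.2% to 23.7% of P16 cells, and a single cell held a median of 20.4% of the FPKM of the higher group. Thus single cells carried a large share of the means of the named genes in both directions.

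Shares of cells gave a shorter list. With every cell at equal depth, 4 of the 6842 genes were present in a share at least 20 percentage points higher with *Cck* in both sets (0.0585%), 3 in a share as much lower (0.0438%), and 5 past 20 points in opposite directions (0.0731%). The 4 were *Pafah1b1*, *Pigp*, *Inpp4a* and *Tsix*, and the 3 were *Usp5*, *C1qtnf4* and *Eif2s3y*. *Pafah1b1*, which codes for LIS1, a regulator of dynein, was present after thinning in 47.2% with and 21.8% without *Cck* in set a beside 57.1% and 35.9% in set b. *Pigp*, of the glycosylphosphatidylinositol anchor pathway, was present in 47.2% and 21.8% in set a beside 50% and 28.2% in set b. *Inpp4a*, an inositol polyphosphate 4-phosphatase, was present in 66.7% and 38.2% in set a beside 57.1% and 33.3% in set b. *Usp5*, a deubiquitinase, was present in 38.9% and 63.6% in set a beside 35.7% and 64.1% in set b. The mean FPKM of *Pafah1b1* in set b was nearly equal (36.4 with, 35.2 without), so shares and means did not order genes alike. *Tsix*, an X-linked RNA, and *Eif2s3y*, a Y-linked translation factor, were both sex-linked.

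The presence of sex-linked RNAs differed between the *Cck* groups. *Xist*, the RNA that coats the inactive X chromosome of female cells, was present in 13 of 36 cells with and 6 of 55 without *Cck* in set a, and in 13 of 56 and 4 of 39 in set b. Over both sets this was 28.3% (19.4 to 38.6) with and 10.6% (5.22 to 18.7) without. The mean FPKM of *Xist* was 11.5 with and 4.56 without *Cck* in set a, but 3.96 and 3.05 in set b. *Tsix* overlaps *Xist* on the other strand of the X chromosome. Smart-seq2 does not mark strand, so fragments from the stretch where *Xist* and *Tsix* overlap cannot be told apart. *Tsix* was listed in 44.6% (34.2 to 55.3) of cells with and 16.0% (9.21 to 24.9) of cells without *Cck*. A fragment of a Y-linked gene (*Ddx3y*, *Eif2s3y*, *Uty* or *Kdm5d*) was present in 36.96% of cells with *Cck* (27.1 to 47.7) and 64.9% without (54.4 to 74.5). *Eif2s3y* alone was present in 19.6% with (12.03 to 29.1) and 48.9% without *Cck* (38.5 to 59.5). Among cells with *Cck*, *Xist* was present in 34.8% of those up to the group's median *Cck* FPKM and in 21.7% of those above it. For *Tsix* these shares were 41.3% and 47.8%, and for the Y-linked genes together 36.96% on both sides. With both sets pooled, the intervals with and without *Cck* did not overlap for *Xist*, *Tsix*, *Eif2s3y* or the Y-linked genes together. How many of all genes tested had intervals apart was not computed. Within sets the numbers were smaller, and the intervals for *Xist* overlapped in set a (20.8 to 53.8 with, 4.11 to 22.2 without) and in set b (13 to 36.4 with, 2.87 to 24.2 without). For the Y-linked genes together they overlapped in set a (20.8 to 53.8 with, 47.7 to 74.6 without) but not in set b (24.9 to 51.5 with, 52.4 to 82.98 without).

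Read the other way, *Cck* was present in 26 of the 36 *Xist* cells (72.2%, 54.8 to 85.8) and in 34 of the 95 cells with a Y-linked gene (35.8%, 26.2 to 46.3). The shares were 68.4% of 19 and 27.7% of 47 cells in set a beside 76.5% of 17 and 43.8% of 48 cells in set b. No cell held both an *Xist* fragment and a fragment of a Y-linked gene. The 55 cells with neither had *Cck* in 58.2% (44.1 to 71.4). With *Tsix* counted as well, 41 of 59 cells without a Y-linked gene had *Cck* (69.5%, 56.1 to 80.8). In set a this was 57.1% of 28 cells, in set b 80.6% of 31 cells. The share was thus higher in *Xist* than in Y cells in both sets, while in each class its value was higher in set b than in set a, with overlapping intervals. Among cells with *Cck*, its level differed less, with a median FPKM of 370.2 in *Xist* cells, 416.6 in Y cells and 528.8 in cells with neither. *Xist* cells had no greater depth, with a median of 253838 fragments and 2561.5 detected genes against 274189 and 2613 in Y cells. Over 6843 genes, *Cck* included, the share of cells after thinning was at least 20 percentage points higher in *Xist* cells than in Y cells for 80 (1.17%) and as much lower for 76 (1.11%). From the top the order was *Xist*, *Tsix*, *Gm10020*, *Ubqln2* and *Cck*, with *Cck* 36.4 points apart. Both *Xist* and Y cells occurred in both *Cck* groups. No label names the mouse, so the sex of a cell and the mouse it came from cannot be told apart, and the part of either in the *Cck* groups was not tested.

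**Figure D4:**
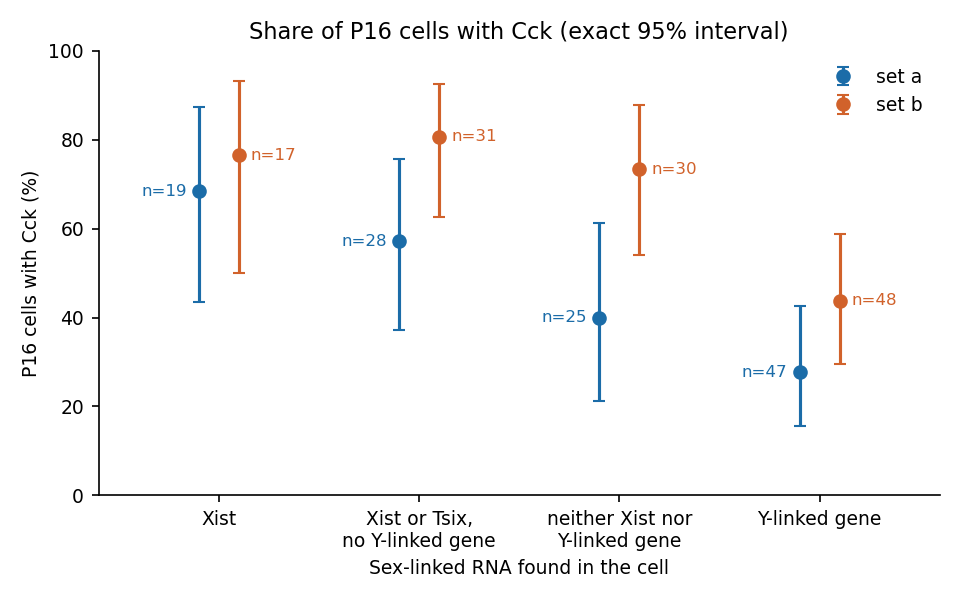
Points give the share of P16 cells with *Cck* (vertical axis, percent) by the sex-linked RNA found in the cell (horizontal axis) in set a (blue) and set b (orange), with exact 95% intervals and the number of cells, where the second class contains the first and takes cells with *Tsix* alone also from the third. In both sets the share is higher in cells with *Xist* (68.4% and 76.5%) than in cells with a Y-linked gene (27.7% and 43.8%).

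The sex-linked RNAs differed between ages. By FPKM above 0, *Xist* was found in all P4 cells, in 99.3% of P11 cells, in 70.5% of P8 cells, in 40.6% of P1 cells and in 32.3% of P16 cells. At P16 this measure gave 60 cells with *Xist*, more than the 36 by fragments, so the shares by age are not set beside those above. It counts values near 0 as presence. In P16 cells with neither an *Xist* fragment nor a Y-linked one, the mean *Xist* FPKM was 1.59e-07 with and 1.01e-07 without *Cck*. Shares by fragments are not given for the earlier ages, so the shares by age may count cells with next to no *Xist*. A Y-linked gene was found in 0.541%, 0%, 30.7%, 54.5% and 51.1% of these cells, in the same order. By FPKM above 0, the 1 P11 cell with *Cck* held *Xist*, as did 99.3% of its age. By the same measure, P1 and P8 held both kinds of cells. *Cck* was found in 0 of 55 P1 cells with *Xist* alone and 0 of 75 with a Y-linked gene alone. At P8 *Cck* was found in 0 of 52 (set a) and 0 of 63 (set b) cells with *Xist* alone. Among P8 cells with a Y-linked gene alone, *Cck* was found in 0 of 49.

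The genes most like *Cck* included the same X-linked RNAs, *Tsix* and *Xist*, whose overlapping fragments cannot be told apart. Spearman rho between FPKM of *Cck* and of each gene tested was taken over the 91 cells of set a and the 95 of set b, and genes were ordered by the smaller rho. The first was *Tsix* (0.30 in set a, 0.28 in set b), followed by *Xist* (0.26 and 0.28), *Ppp2r2a* (0.24 and 0.26), *Atg4b* (0.27 and 0.23), *Gm10020* (0.23 and 0.30), *Arl6* (0.29 and 0.22), *Bscl2* (0.26 and 0.22) and *Opa3* (0.23 and 0.21). All of these were weak, rest on many cells at 0, and carry no p. *Bscl2*, which codes for seipin of lipid droplets, was the most widespread, with a mean FPKM of 210.7 with and 126.4 without *Cck* and log2 ratios of 0.72 (set a) and 0.88 (set b). *Arl6*, a small GTPase of cilia, was present in 22 of 92 and 8 of 94 cells. *Atg4b*, an autophagy protease, was present in 29 and 15.

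Most genes of peptide storage and processing were expressed in both groups. Of 15 such genes, 14 had a fragment in any cell and 12 passed the filter. In both sets 0 were past 2-fold, which for so few genes does not depart from the shares over all genes tested (1.39% higher and 1.52% lower), with a median log2 ratio of -0.22 (set a) and -0.12 (set b) beside -0.01 in both sets for all genes tested. *Scg2*, secretogranin II, had a mean FPKM of 1531 with and 1820 without *Cck* in set a beside 1787 and 2060 in set b. *Cpe*, carboxypeptidase E, was present in 91.3% and 91.5% of cells, with 546.5 ± 367.2 FPKM with (SD, n = 92) and 555.2 ± 411.7 without (n = 94). *Pam*, the amidating enzyme, had 12.1 and 19.4 in set a beside 14.9 and 24.2 in set b. *Pcsk2*, a prohormone convertase, was present in 15.2% and 18.1%, while *Pcsk1*, another convertase, had 0 fragments in every P16 cell. *Cckar* and *Cckbr* had 0 fragments in every P16 cell, which allows shares of up to 1.61%.

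Few other neuropeptide genes could be compared. Of 18 neuropeptide genes besides *Cck*, 9 had a fragment in any cell and 3 passed the filter, too few for their 0 calls to be read against 1.39% and 1.52% of all genes. *Npy*, neuropeptide Y, was present in 96.7% of cells with and 100% of cells without *Cck*, with mean FPKM of 2864 and 3575 in set a beside 3216 and 3698 in set b. *Grp*, gastrin-releasing peptide, was present in 32.6% (23.2 to 43.2) and 26.6% (18.01 to 36.7). *Pomc*, the precursor of melanocortins and beta-endorphin, was present in 17.4% and 23.4%. The intervals of the shares of these 3 genes overlapped between groups.

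Transmitter, receptor and release genes had shares of calls near those of all genes. Of 5 genes of cholinergic transmission, 6 of GABA synthesis and transport, 15 of GABA and glycine receptors, 15 of glutamate receptors and 25 of vesicles and release, 5, 4, 8, 7 and 21 passed the filter, and 0 were past 2-fold in both sets, beside 1.39% (higher) and 1.52% (lower) of all genes tested. The medians of the log2 ratios were 0.03 and -0.03 in sets a and b for cholinergic genes, 0.45 and -0.05 for GABA synthesis and transport, -0.24 and -0.20 for GABA and glycine receptors, 0.03 and -0.11 for glutamate receptors and -0.03 and -0.13 for release genes. *Slc5a7*, the choline transporter, had a mean FPKM of 157.2 ± 144.1 with and 142.4 ± 134.6 without *Cck*. *Snap25*, a SNARE protein of vesicle fusion, had 2675 ± 842.6 and 2625 ± 783.2. *Glra2*, a glycine receptor subunit below the filter, was present in 11 of 92 and 2 of 94 cells, and was named after its values were seen. Of 12 acetylcholine receptors, 2 passed the filter with 0 calls.

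Of 14 potassium channel genes 7 passed, of 14 sodium and calcium channel genes 4, and of 14 calcium-binding proteins and kinases 13, all with 0 calls, beside 1.39% and 1.52% of all genes tested. *Calb2*, calretinin, had a mean FPKM of 6427 ± 2062 with and 6148 ± 1873 without *Cck*. *Vsnl1*, the neuronal calcium sensor visinin-like 1, was present in 76.1% (66.1 to 84.4) and 56.4% (45.8 to 66.6), and its FPKM was 40.3 and 30.3 in set a beside 55.4 and 35.4 in set b. *Vsnl1* was not called.

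Genes of starburst cell identity and dendrites gave 0 calls among 11 of 13 that passed, beside 1.39% (higher) and 1.52% (lower) of all genes tested. So few genes cannot be told from these shares. The log2 ratio was below 0 in both sets for 8 of the 11, against 1843 of all 6842 genes tested, with medians of -0.12 and -0.14. *Isl1*, a transcription factor of starburst cells, had a mean FPKM of 786.4 ± 505.9 with and 863.5 ± 582.5 without *Cck*. *Plxna2*, the receptor of Sema6A, was present in 59.8% (49.04 to 69.9) and 73.4% (63.3 to 81.99). With the markers of starburst cell subtypes, the intervals of *Cck* shares overlapped. *Cck* was present in 16 of 36 cells with *Fezf1* (44.4%, 27.9 to 61.9), which marks ON starburst cells early in development, and in 4 of 13 cells with *Rnd3* (30.8%, 9.09 to 61.4), which marks OFF starburst cells. Cells with *Glra4* but not *P2rx2* had *Cck* in 26 of 54 (48.1%, 34.3 to 62.2), and cells with *P2rx2* but not *Glra4* in 21 of 40 (52.5%, 36.1 to 68.5). *Sema6a* cells had *Cck* in 55 of 97 (56.7%, 46.2 to 66.7) and cells without *Sema6a* in 41.6% of 89 (31.2 to 52.5), with overlapping intervals. These intervals are wide, and differences within them were not detectable with these numbers of cells.

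**Figure D5:**
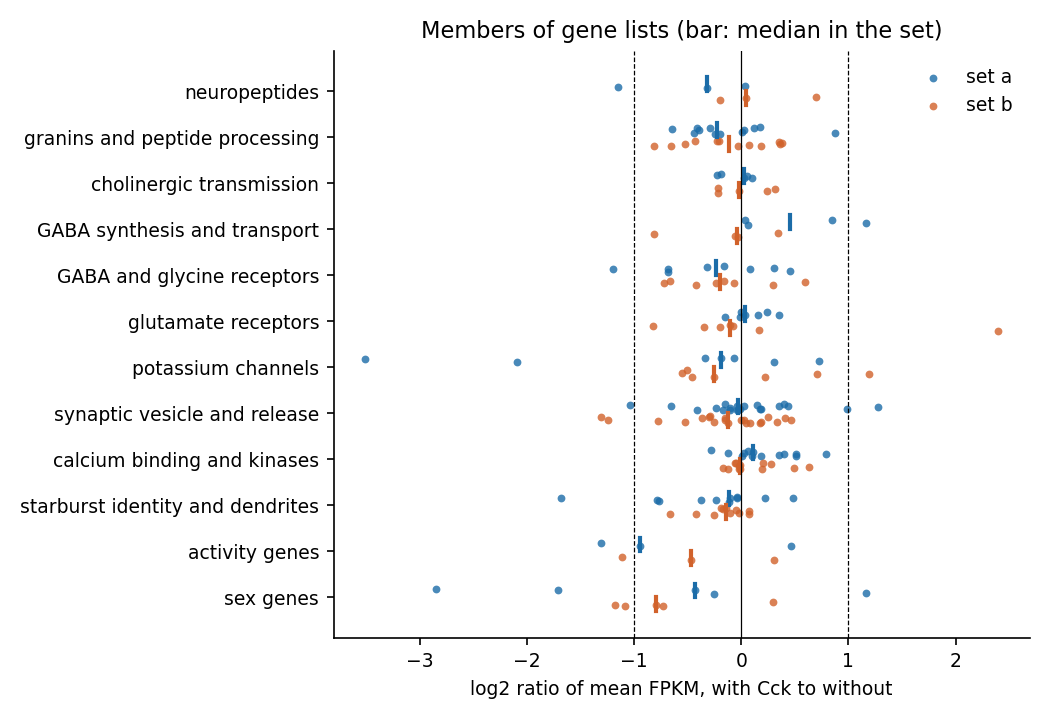
Each point is 1 gene that passed the filter, plotted by its log2 ratio of mean FPKM + 1, with to without *Cck* (horizontal axis), in set a (blue) and set b (orange), by gene list (vertical axis), with bars for medians and dashed lines at 2-fold. Most points lie between the lines, and the 5 sex genes have medians of -0.44 (set a) and -0.80 (set b). Of these 5, *Xist* lies above 0 in both sets and the 4 Y-linked genes lie below 0, so the medians reflect this mix.

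Activity genes were sparse, and 3 of 17 passed the filter. *Nr4a1*, an immediate early gene, was past 2-fold lower in both sets, as were 1.52% of all genes tested, with a mean FPKM of 15.8 with and 40.6 without *Cck* in set a beside 12.4 and 28.1 in set b. Its shares of cells were 11.96% (6.12 to 20.4) and 22.3% (14.4 to 32.1). *Dusp1*, a phosphatase of MAP kinases that is induced by activity and stress, was present in 39.1% of cells with (29.1 to 49.9) and 63.8% without *Cck* (53.3 to 73.5). By set, it was present in 25% and 61.8% in set a beside 48.2% and 66.7% in set b. *Dusp1* was not called by mean FPKM or by shares of cells at equal depth. How many of all genes tested had intervals apart was not computed. *Ier2* went the other way, at 14.1% and 11.7%. *Fos* was present in 6.52% and 6.38%. Among 8 stress genes, 5 passed with 0 calls, and *Hspa8*, a heat shock chaperone, had a mean FPKM of 1157 with and 1218 without *Cck*. Of 13 mitochondrial protein genes 10 passed and of 86 ribosomal protein genes 82 passed, all with 0 calls, beside the same 1.39% and 1.52% of all genes.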

How the data were processed

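Single starburst cells had been amplified with a modified Smart-seq2 protocol and sequenced as paired-end reads. Per the submitters' processing notes, the authors used HISAT2 2.1.0, SAMtools 1.3.1, Cufflinks 2.2.1 and Cuffnorm on GRCm38.p6 (mm10). The deposited FPKM values were normalized by the authors for gene length and depth. The deposited signal is the authors' estimated fragments divided by a size factor, a ratio that the authors deposited for each cell (0.482 to 1.78 at P16). Signal times size factor gave fragments, of which 97.1% of nonzero values lay within 0.01 of a whole number. Some values were not whole and cells are not replicates, so no count test was run. Isoform, coding sequence and start site tables were not used.

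Fragments per P16 cell ranged from 161785 to 488763. A gene was present from 0.995 fragments, taken as 1. Of 29548 deposited genes, 6842 that reached a mean FPKM of 1 and had a fragment in at least 10% of P16 cells were tested, *Cck* left out. A gene was called where log2 of (mean FPKM with *Cck* + 1) over (mean FPKM without + 1) was at least 1, or at most -1, in both sets. With a pseudocount of 1, this scale understates the change of low genes. The 12 called genes per direction with the largest smaller absolute log2 ratio of both sets were named, predicted genes aside (5 higher and 10 lower), with the 8 genes most like *Cck* and genes of fixed lists. Lists are described by counts and medians. Intervals are exact Clopper-Pearson 95% intervals, counts of 0 carry the upper limit of 3 counts, and thinning drew fragments without replacement (seed 7). The labels put each cell at its age, and the members, lists and rules were chosen with earlier results of these data known. Gene positions came from GENCODE vM21, which holds 29279 of the identifiers without version. The procedure was tested on P16 values shuffled among the cells of each set, with known changes planted in genes whose mean FPKM reached 100. No called gene reached this mean, so the planted changes do not cover the sparse genes that were called. Alternatives for cells with a Y-linked gene, and the share of cells with *Cck* among *Xist* cells, were chosen after seeing the data. Python 3.11.15, numpy 2.4.6, pandas 2.3.3, scipy 1.17.1 and matplotlib 3.10.9 were used.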

Additional observations from a re-analysis of the deposited data

How the results depend on the processing

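The share of tested genes called depended on many settings. Against 1.39% higher and 1.52% lower, it was 0.219% in each direction with a pseudocount of 10, 4.88% and 4.82% at a fold of 1.5, 0.205% and 0.248% at a fold of 3, and 3.13% and 2.78% with no filter on low values. It was 2.1% and 2.4% with the highest cell of each gene left out, 8.55% and 10.5% in set a alone, 9.79% and 8.49% in set b alone, and 0.0585% and 0.0438% by shares of cells at equal depth, of which 0 genes were among the main calls. In *Xist* cells alone (6 and 4 cells without *Cck* in sets a and b) it was 13.8% and 4.79%, in cells without *Xist* 1.77% and 2.41%, and in cells with a Y-linked gene, chosen after seeing the data, 2.62% and 4.59%, where 35 and 55 of the main calls remained. Under the remaining alternatives the numbers of called genes stayed within 1.5 times, but the genes changed: 54.7% to 100% of the higher and 63.5% to 100% of the lower main calls were shared, the fewest higher ones in cells with *Chat* and *Slc18a3* and the fewest lower ones with fragments scaled to depth. Genes past 2-fold in opposite directions in both sets were 2.02% to 3.2% under these remaining alternatives, against 2.5%. Where the calls moved, the share in opposite directions moved with them. It was 15.8% in *Xist* cells, 7.07% in cells with a Y-linked gene and 3.6% in cells without *Xist*. With the highest cell left out it was 4.24%, with no filter 5.76%, and at a fold of 1.5 it was 8.55%. At a fold of 3 it was 0.497%, and with a pseudocount of 10 it was 0.453%.

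The difference in median detected genes was 73.5 over all P16 cells and 134.5 in set a alone, and under the other alternatives it moved by less than the spread between sets. The share of cells with *Cck*, 49.5%, was 39.6% in set a, 58.9% in set b, 72.2% in *Xist* cells and 35.8% in cells with a Y-linked gene. The shares by sex-linked RNA were chosen after seeing the data. Over 12 alternatives for each of the 24 named genes, 68 values moved by more than the spread between sets, and 2 changed sign: *Dtwd2* had a mean log2 ratio of -0.71 in cells with a Y-linked gene, and *Gclm* 0.074 in *Xist* cells. For these genes, the alternatives of set a alone and set b alone could not move, since they lie within that spread by definition. The causes were not tested. No paired analysis was possible because the labels give each cell a number of its own and no test was made over cells. Single cells at this depth limit rare genes most, since the median tested gene was present in 25.8% of cells.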

Other observations

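Several genes differed between the 36 *Xist* cells and the 95 cells with a Y-linked gene in their share of cells after thinning. These genes were looked at after values had been seen, no label names the mouse, and sex and mouse cannot be told apart. *Gm10020*, a processed pseudogene on chromosome 15, was present in 75% of *Xist* cells and 2.11% of Y cells. Its reads may be shared with a parent gene, so its value is uncertain. *Ubqln2*, an X-linked ubiquilin, was present in 63.9% and 15.8%. *Coa3*, of cytochrome oxidase assembly on chromosome 11, was present in 91.7% and 56.8%, and *Sirt2*, a deacetylase on chromosome 7, in 47.2% and 13.7%.

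At the other end, *Eif2s3y* was present in 0% of *Xist* cells and 65.3% of Y cells, which helped define these classes. The autosomal genes *Upf1*, of nonsense-mediated decay, *Smarcad1*, a chromatin remodeller, and *Fam32a* were each present in 22.2% and 58.9%. *Scaf11*, a splicing-related protein on chromosome 15, was present in 2.78% and 36.8%. *Ddx3y* and *Kdm5d*, both Y-linked, were each present in 0% and 28.4%.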
